A study of Mus musculus with 32 samples.

Results

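Matricellular proteins are secreted into the extracellular matrix, where they tune adhesion and growth factor signalling more than they bear load, and several of them are switched on in injured tissue. The 8 genes of this kind described here are Ctgf, Cyr61, Thbs1, Thbs2, Tnc, Postn, Fn1 and Sparc. They were chosen by gene name, and every array feature carrying one of these names was taken. This gave 11 of the 55681 mouse features of the array, and 8 of its 35715 gene or transcript names. The features of all 8 genes were well above background on all 32 arrays. Each gene is described on its brightest feature, by mean over all arrays, and the other features of Tnc and Sparc are given beside it.

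Whole-lung RNA came from 32 newborn C57Bl/6J mice, 4 in each of 8 groups, with 1 mouse per array. The mice were kept in room air (21% O2) or in hyperoxia (85% O2), the standard mouse model of bronchopulmonary dysplasia, and lungs were taken at postnatal day 5 (P5) or 14 (P14). All mice had received an oligonucleotide, by intraperitoneal injection per the methods, so that no group was without an injection. It was either antimiR-34a, which binds and blocks the microRNA miR-34a, or a scrambled antimiR. The paper reports that antimiR-34a lowered functional miR-34a in the lungs, and that miR-34c was moderately affected. The study asked which lung genes hyperoxia changes while alveoli form and which of these changes blocking miR-34a alters. Both sexes were used per the methods, and the level of miR-34a itself is not analysed here.

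CCN proteins such as Ctgf and Cyr61 bind integrins and heparan sulphate, and their genes respond within minutes to hours to serum, stretch and transforming growth factor beta. Thrombospondin 1 activates latent transforming growth factor beta and, like thrombospondin 2, inhibits the growth of blood vessels. Tenascin C and periostin are made by myofibroblasts and mesenchyme at sites of growth and repair, fibronectin is the early scaffold of a wound, and Sparc binds collagen and guides its assembly.

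All levels below are log2 signals after subtracting each array's 75th percentile, so that 1 unit is a doubling, and differences are log2 fold changes from limma, with the adjusted p of Benjamini and Hochberg over all tested features. A gene was called different when this adjusted p was under 0.05. The level of a gene can be compared between mice but not with the level of another gene, since features differ in how brightly they bind. In whole lung, fewer cells of a type and less RNA per cell cannot be told apart. Each of the 4 slides held the 8 mice of 1 age and 1 oxygen level, so oxygen or age and slide cannot be told apart. The antimiRs were compared within a slide, but lay on different rows of it, and antimiR and array row cannot be told apart. The labels name another anaesthetic for P5 than for P14 mice, while the methods name the same agent for both. The labels do not say whether the mice of a group were littermates, and the p-values measure only the spread between these mice.

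The microRNA that the antimiR was directed against is shown with its seed, bases 2 to 8 from the 5′ end, in capitals. RefSeq places it on the plus strand of GRCm38.p6 at chr4:150068473-150068494.
mmu-miR-34a-5p: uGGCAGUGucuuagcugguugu

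The 250 bases before the transcription start are shown for the gene that differed most between the antimiRs, Cyr61, and for Tnc, whose oxygen effect differed most between the ages. Both come from RefSeq on GRCm38.p6. The table of promoters used here gave a sequence for 5 of the 8 genes. Both genes lie on the minus strand, Cyr61 at chr3:145649986-145650235 and Tnc (the first of 2 listed starts) at chr4:64047016-64047265. Capitals mark matches to the letters searched on both strands, which were CATTCC (the core that TEAD factors bind), TGANTCA (AP-1), GTCTG (SMAD), TATAAA (the TATA box) and the CArG box of serum response factor.
Cyr61: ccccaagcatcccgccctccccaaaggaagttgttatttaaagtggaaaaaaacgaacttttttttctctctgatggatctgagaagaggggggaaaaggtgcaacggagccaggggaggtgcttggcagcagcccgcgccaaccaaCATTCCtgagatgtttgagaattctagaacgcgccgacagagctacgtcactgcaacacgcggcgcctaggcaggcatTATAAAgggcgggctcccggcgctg
Tnc: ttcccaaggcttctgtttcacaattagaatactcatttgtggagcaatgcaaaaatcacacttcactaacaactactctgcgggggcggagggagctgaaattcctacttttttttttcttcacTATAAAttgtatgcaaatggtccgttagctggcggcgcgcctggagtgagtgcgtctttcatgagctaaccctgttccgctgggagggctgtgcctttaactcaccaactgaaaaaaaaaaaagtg

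In the Cyr61 window, CATTCC lay at bases -103 to -98 and TATAAA at -25 to -20 from the start. In the Tnc window, TATAAA lay at -126 to -121. Of 32817 mouse promoters of the same length, 12.6% held CATTCC, 12.4% TATAAA, 6.75% TGANTCA, 42.2% GTCTG and 1.47% a CArG box. A match in letters is a description and not a binding site. CATTCC was found in none of the windows of Thbs2, Tnc, Postn and Sparc.

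**Figure D1:**
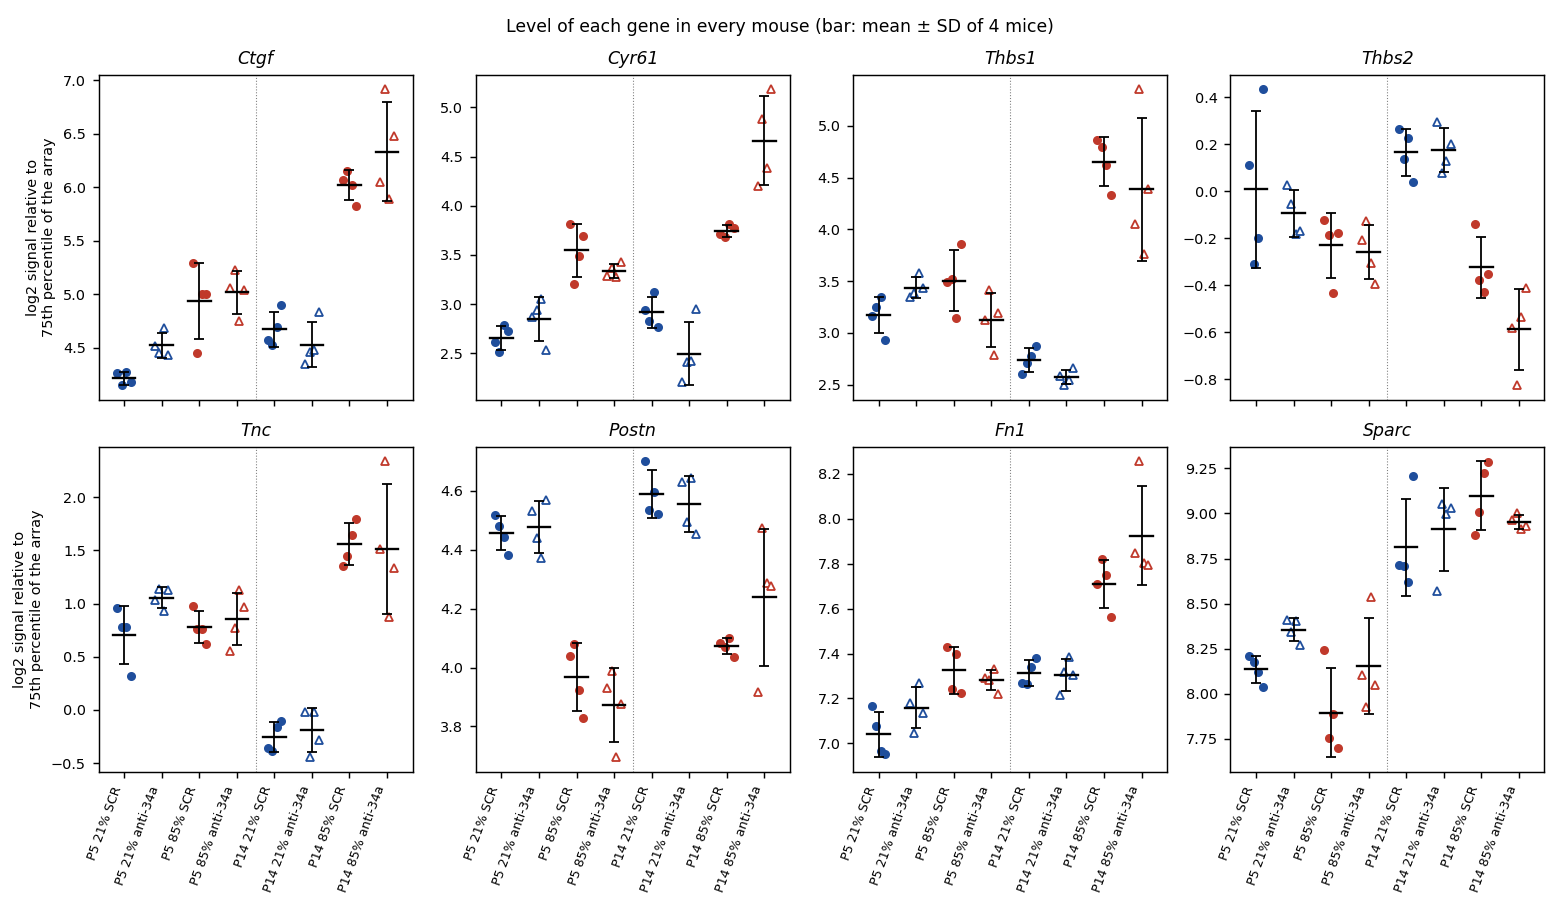
Log2 signal of each of the 8 genes relative to each array's 75th percentile (vertical axis) in every mouse of the 8 groups (horizontal axis). Points are mice (circles, scrambled antimiR, and triangles, antimiR-34a, in blue for 21% O2 and red for 85% O2), and bars are means with SD of 4 mice. By group mean, Tnc and Thbs1 were lowest in the 21% O2 groups at P14 and highest in the 85% O2 groups at P14, while Postn was lower in 85% O2 at both ages.

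At P5 in mice given the scrambled antimiR, hyperoxia raised Ctgf, Cyr61 and Fn1 and lowered Postn. These were 4 of the 8 genes, against 43.9% of all 35984 tested features. The 3 that rose stand against 17.4% of features called higher and the 1 that fell against 26.5% called lower. At P14, 7 of the 8 genes changed, against 60.9% of 38458 features, and 5 rose (28.2% of features) while 2 fell (32.7%). The oxygen groups did not overlap in 4 of the 8 genes at P5 and in 7 at P14, against 39.1% and 56.7% of all features tested. The median log2 fold change over the 8 genes was 0.18 at P5 and 0.61 at P14, where the medians over all tested features were -0.07 at both ages.

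Ctgf, a CCN protein that promotes matrix production, lay between 4.15 and 4.27 in the 4 room air mice given the scrambled antimiR at P5. In hyperoxia the mice were at 5.30, 4.45 and, for both others, 5.0. All 4 hyperoxic mice were above all 4 in room air, and replicate 2 came closest to them. The log2 fold change was 0.72 (standard error, SE, 0.14, adjusted p = 0.00115 by limma), and with the methods' test the call was lost (adjusted p = 0.0699). At P14 the room air mice were at 4.57, 4.52, 4.69 and 4.89, and the hyperoxic mice at 6.07, 6.16, 6.03 and 5.82. The groups lay about 1 unit apart at their nearest mice, and the log2 fold change was 1.35 (SE 0.19, adjusted p = 3.43e-05 by limma), a 2.55-fold rise.

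Cyr61, the CCN protein that drives angiogenesis and is an immediate early gene, was at 2.61, 2.51, 2.79 and 2.73 in room air at P5 and at 3.82, 3.20, 3.49 and 3.69 in hyperoxia. At P14 it was at 2.94, 2.83, 3.12 and 2.77 in room air and at 3.71, 3.69, 3.82 and 3.77 in hyperoxia. The oxygen groups did not overlap at either age. The rise was of like size at both, with log2 fold changes of 0.89 (SE 0.13, adjusted p = 8.44e-05 by limma) and 0.83 (SE 0.19, adjusted p = 0.00217 by limma).

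Thbs1 had another course. At P5 it was at 3.16, 3.25, 3.35 and 2.93 in room air and at 3.49, 3.52, 3.14 and 3.86 in hyperoxia, with overlapping groups. The log2 fold change of 0.33 (SE 0.15) did not pass the test (adjusted p = 0.0832 by limma). It did so without hyperoxic replicate 3, at 0.45 (adjusted p = 0.0230 by limma), and was at 0.21 without replicate 4 (adjusted p = 0.252 by limma). At P14 the room air mice lay at 2.60, 2.70, 2.77 and 2.87, below every P5 mouse given the scrambled antimiR, and the hyperoxic mice at 4.86, 4.80, 4.62 and 4.33, above every P5 mouse. This was the largest oxygen difference among the 8 genes in these mice, at 1.91 (SE 0.25, adjusted p = 1.89e-05 by limma) or 3.77-fold.

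Its relative Thbs2 went the other way. At P14 the room air mice were at 0.26, 0.14, 0.22 and 0.04 and the hyperoxic mice at -0.14, -0.38, -0.43 and -0.35, without overlap, at a log2 fold change of -0.49 (SE 0.09, adjusted p = 0.000538 by limma). At P5 the fold change was -0.24 (adjusted p = 0.159 by limma), with room air mice at 0.11, -0.31, -0.20 and 0.43. The highest of these was replicate 4, whose skeletal muscle genes stood far above the other mice (given below). Without replicate 4 the fold change at P5 was -0.10 (adjusted p = 0.489 by limma), and without replicate 2 it was -0.35 (adjusted p = 0.0462 by limma).

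Tnc was nearly level at P5, at 0.95, 0.78, 0.77 and 0.32 in room air and at 0.98, 0.77, 0.76 and 0.62 in hyperoxia, a log2 fold change of 0.07 (SE 0.14, 95% confidence interval from -0.22 to 0.37, limma adjusted p = 0.693). At P14 it was at -0.36, -0.39, -0.16 and -0.10 in room air and at 1.35, 1.44, 1.64 and 1.79 in hyperoxia. The 2 groups were well separated, and the difference was 1.81 (SE 0.23, adjusted p = 1.65e-05 by limma), or 3.51-fold.

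Tnc is read by 2 features of 60 bases, at bases 2590 and 4868 of the transcript. They are shown because they read different stretches of the same message. The array annotation gives no genome position for the first and places the second on the minus strand at chr4:63643728-63643787 of mm9, and both can be read through without a stop codon in at least 1 frame.
Tnc, base 2590: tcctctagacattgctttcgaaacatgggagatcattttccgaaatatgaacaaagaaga
Tnc, base 4868: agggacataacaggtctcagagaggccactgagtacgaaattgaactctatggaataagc

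The second feature gave the same picture for oxygen, at 0.07 at P5 (adjusted p = 0.620 by limma) and 1.3 at P14 (SE 0.21, adjusted p = 0.000137 by limma). At P14 its room air mice were at -0.37, -0.30, -0.48 and 0.09 and its hyperoxic mice at 1.12, 1.11, 0.97 and 0.94. The rise was smaller than on the first feature, and the groups again did not overlap.

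Postn, a ligand of alpha v integrins, fell at both ages. At P5 it was at 4.52, 4.48, 4.45 and 4.38 in room air and at 4.04, 4.08, 3.92 and 3.83 in hyperoxia. At P14 it was at 4.70, 4.53, 4.60 and 4.52 and at 4.08, 4.07, 4.10 and 4.04. No hyperoxic mouse reached a room air mouse at either age. The log2 fold changes were -0.49 (SE 0.08, adjusted p = 0.000162 by limma) and -0.52 (SE 0.10, adjusted p = 0.00046 by limma).

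Fn1 rose by a small amount. At P5 it was at 7.17, 7.08, 6.97 and 6.96 in room air and at 7.43, 7.24, 7.40 and 7.22 in hyperoxia, a log2 fold change of 0.28 (SE 0.07, adjusted p = 0.00479 by limma). At P14 it was at 7.27, 7.26, 7.34 and 7.38 and at 7.71, 7.82, 7.75 and 7.56, a log2 fold change of 0.40 (SE 0.10, adjusted p = 0.00282 by limma). The groups did not overlap at either age. With quantile normalization the value at P14 was 0.15 (adjusted p = 0.210 by limma), in the authors' values it was also 0.15 (adjusted p = 0.221 by limma), and the call was lost in both.

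**Figure D2:**
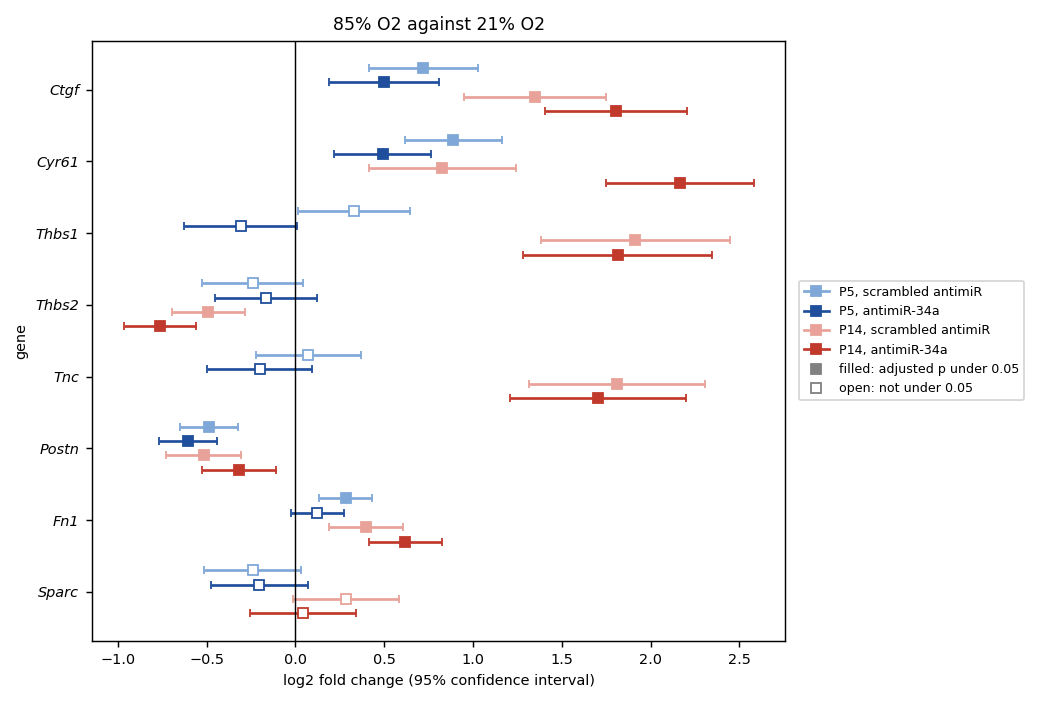
Log2 fold change of each gene in 85% O2 against 21% O2 (horizontal axis, squares with 95% confidence intervals) by age and antimiR, from limma. Filled squares have an adjusted p under 0.05. Thbs1 and Tnc lie between -0.31 and 0.33 at P5 and between 1.70 and 1.91 at P14, while Postn lies below 0 in all 4 comparisons.

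Whether the oxygen effect itself differed between the ages was tested over all 32 arrays, in the mice given the scrambled antimiR. The effect at P14 minus that at P5 was called above 0 for 4 of the 8 genes and below 0 for none, against 40.8% of 39163 features called, 22.8% above 0 and 18% below. The 4 were Tnc, Thbs1, Ctgf and the brightest feature of Sparc, whose oxygen effect was not called at either age. The difference of log2 fold changes was 1.74 for Tnc (SE 0.28, adjusted p = 2.63e-05 by limma) and 1.58 for Thbs1 (SE 0.30, adjusted p = 0.000165 by limma). Both kept their calls with any 1 array left out and in all other alternatives tried.

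For Ctgf the difference was 0.63 (adjusted p = 0.0397 by limma). This call was lost under 5 other alternatives, with quantile normalization at 0.42 (adjusted p = 0.156 by limma) as the lowest. It was also lost without any of 10 single arrays: room air replicates 1, 3 and 4 and hyperoxic replicate 2 of P5, and room air replicates 1, 2 and 3 and hyperoxic replicates 1, 2 and 3 of P14. With 1 array left out the difference lay between 0.47 and 0.75 (limma adjusted p from 0.0157 to 0.112). For Cyr61 it was -0.06 (95% confidence interval from -0.55 to 0.43) and for Postn -0.03 (from -0.28 to 0.22), neither called.

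In room air with the scrambled antimiR, 4 of the 8 genes differed between P14 and P5, 3 higher and 1 lower, where 51.4% of features were called, 27.7% higher and 23.8% lower. Tnc fell by 0.96 (SE 0.20, adjusted p = 0.000227 by limma), from 0.71 ± 0.27 at P5 to -0.25 ± 0.14 at P14 (SD, n = 4 each). Its second feature fell by 0.37 and missed the threshold (adjusted p = 0.0791 by limma). Thbs1 was at -0.43 (adjusted p = 0.0864 by limma), with groups that did not overlap, as was so for 49.1% of all features tested. It was called under 3 of 10 alternatives, which were quantile normalization (-0.48, adjusted p = 0.0414 by limma), only the compared groups (adjusted p = 0.00961 by limma) and the methods' test (adjusted p = 0.0268). Ctgf was higher by 0.46 (adjusted p = 0.0283 by limma) and Fn1 by 0.27 (adjusted p = 0.00774 by limma). Ctgf lost its call without P5 replicate 2 or 4 or P14 replicate 3 or 4, where its value was between 0.38 and 0.45, and Fn1 lost it with quantile normalization, at 0.09 (adjusted p = 0.399 by limma).

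Sparc has 3 features, and they did not give the same answer. The brightest, at base 1303 of the transcript, showed no called oxygen effect at either age, with -0.24 at P5 (adjusted p = 0.140 by limma) and 0.29 at P14 (adjusted p = 0.0902 by limma). The feature at base 2240 was lower in hyperoxia by 0.45 at P5 (SE 0.12, adjusted p = 0.00646 by limma) and by 0.42 at P14 (SE 0.07, adjusted p = 0.000162 by limma). There the P14 room air mice lay at 5.57, 5.57, 5.53 and 5.59 and the hyperoxic mice at 5.28, 5.12, 5.18 and 5.01. The dimmest feature, at base 2470, had log2 fold changes of -0.47 (adjusted p = 2.19e-05 by limma) and -0.82 (adjusted p = 9.13e-05 by limma).

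Before scaling, the log2 signal of the brightest Sparc feature lay between 18.55 and 18.86 on all 16 P14 arrays, while the 75th percentile of these arrays ran from 9.34 to 10.20. Only 12 other features reached a higher scaled level. Its scaled level was highest in the room air group, at 9.21, on the dimmest array of that group, scrambled antimiR replicate 4, and lowest, at 8.57, on the brightest, antimiR-34a replicate 1. The scanner software marked no spot as saturated, and the part of a signal limit in these values was not tested. The oxygen value of this feature at P14 was 0.42 without room air replicate 4 (adjusted p = 0.0108 by limma) and 0.36 without hyperoxic replicate 1 (adjusted p = 0.0494 by limma), and the mean of all 3 features gave -0.32 (adjusted p = 0.00662 by limma). At P5 it was -0.36 without hyperoxic replicate 1 (adjusted p = 0.0219 by limma), and the mean of the features -0.39 (adjusted p = 0.00127 by limma).

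Between P5 and P14 in room air, all 3 Sparc features rose, by 0.68, 0.87 and 0.63 (adjusted p = 0.000197, 4.8e-08 and 7.61e-06 by limma). The brightest lost its call with quantile normalization, at 0.12 (adjusted p = 0.0641 by limma), and in the authors' values, at 0.11 (adjusted p = 0.104 by limma). The oxygen effect at P14 minus that at P5 was 0.53 for the brightest (adjusted p = 0.0304 by limma), 0.03 for the feature at base 2240 (adjusted p = 0.888 by limma), and -0.34 for the feature at base 2470 (adjusted p = 0.0482 by limma).

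**Figure D3:**
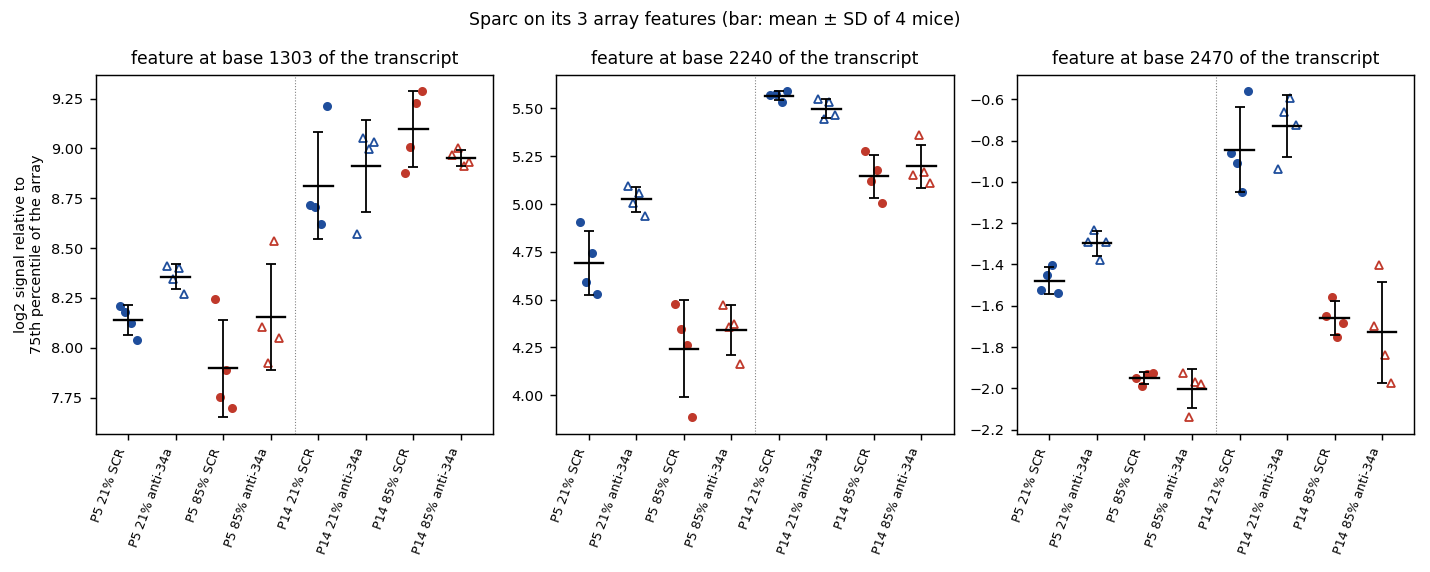
Log2 signal of the 3 Sparc features relative to each array's 75th percentile (vertical axes, each with its own range) in every mouse of the 8 groups (horizontal axis). Points are mice and bars are means with SD of 4 mice. The features at bases 2240 and 2470 were lower in 85% O2 at both ages, and the brightest feature, at base 1303, was not called at either.

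Under antimiR-34a, hyperoxia again raised Ctgf and Cyr61 and lowered Postn at P5, 3 of the 8 genes, against 46.6% of features called. The 2 that rose stand against 17.1% of features called higher and the 1 that fell against 29.5% called lower. At P14 the 7 genes called under the scrambled antimiR were called again in the same directions, 5 higher and 2 lower, against 65.5% of features (27.6% higher and 37.9% lower). The oxygen groups did not overlap in 3 of the 8 genes at P5 and in 6 at P14, against 42.0% and 58.9% of all features tested. The median log2 fold change over the 8 genes was -0.18 at P5 and 1.16 at P14, where all tested features had -0.09 and -0.12. The median at P5 thus had the opposite sign to that under the scrambled antimiR. These comparisons use other mice than those above.

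At P14 under antimiR-34a, Cyr61 was at 2.20, 2.41, 2.42 and 2.95 in room air and at 4.21, 4.88, 4.38 and 5.18 in hyperoxia. The gap between the groups was over 1 unit, and the log2 fold change was 2.17 (SE 0.19, adjusted p = 6.83e-07 by limma), or 4.49-fold. Ctgf was at 4.34, 4.46, 4.47 and 4.83 and at 6.05, 6.92, 5.89 and 6.48, a log2 fold change of 1.81 (adjusted p = 2.41e-06 by limma). Thbs1 was at 2.59, 2.50, 2.54 and 2.67 and at 4.05, 5.35, 3.76 and 4.39, a log2 fold change of 1.81 (adjusted p = 2.54e-05 by limma).

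In 3 of these genes, hyperoxic replicate 2 was the highest of its group: it led in Ctgf and Thbs1, and in Tnc, where the hyperoxic mice were at 1.51, 2.34, 0.87 and 1.33. It was also highest in Fn1, at 8.26 against 7.80 to 7.85. Without it the log2 fold changes were 1.61 for Ctgf, 1.49 for Thbs1, 1.43 for Tnc and 0.51 for Fn1, and all 4 kept their calls (limma adjusted p between 2.34e-06 and 4.41e-05). With it, Tnc was at 1.70 and Fn1 at 0.62. The second Tnc feature gave a smaller rise, at 0.92 (adjusted p = 0.00175 by limma). Thbs2 was lower in hyperoxia by 0.76 (SE 0.09, adjusted p = 1.12e-05 by limma), and by 0.69 without hyperoxic replicate 2. Postn, with overlapping groups here, was at -0.32 (adjusted p = 0.0111 by limma), and at the same size with only the compared mice in the fit its limma adjusted p was 0.0520. The methods' test did not call it either (adjusted p = 0.0990). Without hyperoxic replicate 1 it was at -0.21 and without replicate 2 at -0.40, called by limma in both.

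At P5 under antimiR-34a, Ctgf rose by 0.50 (adjusted p = 0.0113 by limma) and Cyr61 by 0.49 (adjusted p = 0.00613 by limma), while Postn fell by 0.61 (adjusted p = 2.23e-05 by limma). Thbs1 was at -0.31 (adjusted p = 0.100 by limma), below 0 where it was above 0 under the scrambled antimiR, and without hyperoxic replicate 2 it was at -0.40 (adjusted p = 0.0451 by limma) and without replicate 3 at -0.19 (adjusted p = 0.273 by limma). Fn1 was at 0.12 (adjusted p = 0.163 by limma), and at 0.21 with quantile normalization (adjusted p = 0.0294 by limma). The first Tnc feature was at -0.20 (adjusted p = 0.246 by limma) and the second was lower in hyperoxia by 0.46 (adjusted p = 0.00424 by limma). The Sparc features at bases 2240 and 2470 were called lower here too, at -0.68 and -0.70, and at P14 at -0.30 and -1.0 (adjusted p = 0.000295, 4.91e-07, 0.00193 and 1.36e-05 by limma).

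Blocking miR-34a left most of the 8 genes without a called difference. In hyperoxia at P14, Cyr61 was the 1 gene of the 8 that was called between the antimiRs, against 2.67% of features. It was at 3.71, 3.69, 3.82 and 3.77 in the mice given the scrambled antimiR and at 4.21, 4.88, 4.38 and 5.18 in those given antimiR-34a. The groups did not overlap, as was so for 9.54% of all features tested. All 4 antimiR-34a mice were above all 4 others, and their SD was 0.45 against 0.06. The log2 fold change was 0.92 (SE 0.19, adjusted p = 0.0256 by limma), or 1.89-fold.

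This call for Cyr61 was not kept under all alternatives. With only the 8 mice of that slide in the fit the limma adjusted p was 0.105 at the same size, and with the methods' test it was 0.356. It was also lost without scrambled antimiR replicate 1, 2 or 4 or antimiR-34a replicate 4, with values of 0.91, 0.90, 0.93 and 0.74 (limma adjusted p between 0.0510 and 0.0661). Over the 10 alternatives other than leaving out single arrays, the log2 fold change lay between 0.90 and 0.92.

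In room air at P14 the Cyr61 difference had the opposite sign, at -0.42 (SE 0.19, adjusted p = 0.474 by limma), with antimiR-34a mice at 2.20, 2.41, 2.42 and 2.95. The interaction, which asks whether the antimiR effect differed between oxygen levels, was 1.34 for Cyr61 (SE 0.27, unadjusted p = 0.00025, limma adjusted p = 0.0829). It missed the threshold with all mice, and with 1 array left out its limma adjusted p ran from 0.0401 to 0.191. Without both room air arrays of unusual brightness it was 1.29 (adjusted p = 0.0101 by limma), a setting that called 6825 of 40087 features for the interaction against 34 of 38458 with all mice. It was also called without scrambled antimiR replicate 4 in room air, at 1.39 (adjusted p = 0.0401 by limma), and without antimiR-34a replicate 1 in hyperoxia, at 1.49 (adjusted p = 0.0475 by limma).

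The other values in hyperoxia at P14 were 0.31 for Ctgf, 0.21 for Fn1, 0.17 for Postn, -0.04 for Tnc, -0.15 for Sparc, -0.26 for Thbs2 and -0.27 for Thbs1, with limma adjusted p between 0.170 and 0.951. Thbs1 turned on single mice, and was at -0.59 without antimiR-34a replicate 2 (adjusted p = 0.0444 by limma) but at -0.06 without replicate 3 (adjusted p = 0.936 by limma). Ctgf, Fn1, Postn and Tnc also moved, to 0.12, 0.10, 0.09 and -0.32 without antimiR-34a replicate 2. Their highest values were 0.46, 0.26, 0.27 and 0.17, without antimiR-34a replicates 3, 4, 1 and 3, and none was called with any array left out.

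In the other 3 comparisons of the antimiRs none of the 8 genes was called by limma, and 1 in each had an unadjusted p under 0.05. Over all features this share was 13.1% at P5 in hyperoxia, 17.6% at P5 in room air and 10.5% at P14 in room air, so 1 of 8 genes was close to the background. At P5 in hyperoxia, where 0.0639% of features were called, this was Thbs1, at 3.12, 3.41, 2.78 and 3.19 with antimiR-34a against 3.49, 3.52, 3.14 and 3.86, a log2 fold change of -0.38 (adjusted p = 0.311 by limma). At P5 in room air, where 0.136% of features were called, it was Tnc, at 0.35 (adjusted p = 0.231 by limma), and at 0.22 without scrambled antimiR replicate 4. The groups did not overlap there for Ctgf, at 4.52, 4.45, 4.68 and 4.43 with antimiR-34a, nor for Thbs1 and Sparc, with log2 fold changes of 0.31, 0.26 and 0.22 (adjusted p = 0.287, 0.361 and 0.375 by limma). Of all features tested, 15.4% had groups that did not overlap in this comparison.

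At P14 in room air it was Cyr61, where 0% of features were called. This count, 0 of 38458, was 1234 without scrambled antimiR replicate 4, and the methods' test called 0 of the 8 genes in all 3 comparisons. Without both arrays of unusual brightness, the brightest Sparc feature was called at 0.35 (adjusted p = 0.0289 by limma), as were 6729 of all 40087 features. The methods' test also called none of the 8 genes for the antimiRs in hyperoxia at P14.

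No gene of the 8 was called for the interaction at either age by limma, where 0.0556% of features were called at P5 and 0.0884% at P14. At P5, Thbs1 had -0.64 (SE 0.21, unadjusted p = 0.00829, limma adjusted p = 0.304) and Cyr61 -0.40 (unadjusted p = 0.0442, limma adjusted p = 0.447). These were the 2 genes of the 8 with an unadjusted p under 0.05 at P5, as had 3894 of all 35984 features. The second Tnc feature had -0.53 (unadjusted p = 0.00475, limma adjusted p = 0.266), and the first had -0.27 (unadjusted p = 0.181). The dimmest Sparc feature had -0.23 (unadjusted p = 0.0126, limma adjusted p = 0.336), while the other Sparc features had an unadjusted p above 0.05. The Cyr61 interaction was thus below 0 at P5 and above 0 at P14, and the difference between the ages was not tested. At P14, Cyr61 was the 1 gene with an unadjusted p under 0.05, as had 5758 of all 38458 features.

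**Figure D4:**
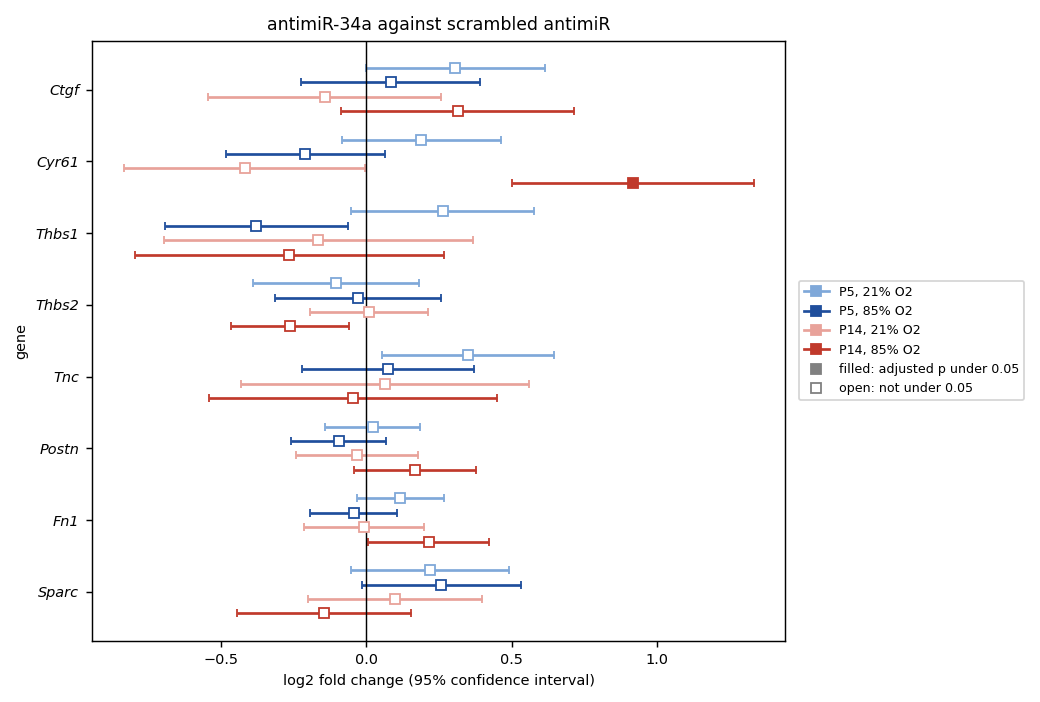
Log2 fold change of each gene with antimiR-34a against scrambled antimiR (horizontal axis, squares with 95% confidence intervals) by age and oxygen level, from limma. The filled square, with an adjusted p under 0.05, is Cyr61 in 85% O2 at P14, at 0.92, and all other squares are open.

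Cyr61 is 1 of the immediate early genes, which rise within minutes of a stimulus, and 14 others of that kind were examined with it. In hyperoxia at P14, 3 of the 13 measured ones were called higher with antimiR-34a and none lower, where 451 of 38458 features were called higher: the transcription factor Egr1 at 1.27 (adjusted p = 0.0419 by limma), Btg2 at 0.69 (adjusted p = 0.0235 by limma) and the RNA-binding protein Zfp36 at 0.81 (adjusted p = 0.0398 by limma). The methods' test called 0 of 33871 features in this comparison, these 3 included. The median over the 13 was 0.42, where all features had -0.04. In the other comparisons of the antimiRs none of the 13 was called. Their medians there were -0.25 in hyperoxia at P5, 0.22 in room air at P5 and -0.14 in room air at P14. Their mean level relative to all P14 mice lay between 0.24 and 0.34 in the 4 scrambled antimiR mice and at 0.31, 0.94, 0.46 and 0.96 with antimiR-34a. The 2 mice highest in this mean, antimiR-34a replicates 2 and 4, were also the highest in Cyr61. The same 2 mice were the highest of their group in other lists as well. In the order of the replicates, the means of this group were -0.37, 0.12, -0.37 and 0.01 for lung mesenchyme markers, 0.03, 0.41, 0.00 and 0.44 for other matricellular genes, -0.10, 0.26, -0.04 and 0.11 for YAP and TAZ targets, and -0.34, 0.55, 0.02 and 0.38 for mesothelium markers. Replicate 4, the highest in Cyr61, also stood above the other 3 mice in skeletal muscle markers (0.45 against -1.22 to -0.71) and heart muscle markers (0.52 against -1.80 to -0.88). In room air the mean was at -0.79, -0.59, -0.72 and -0.24 with antimiR-34a, and the highest of these, replicate 4, was again highest in Cyr61 and also in skeletal and heart muscle markers, at 1.19 and 2.19. The part of these other differences between the mice in the Cyr61 value was not tested.

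**Figure D5:**
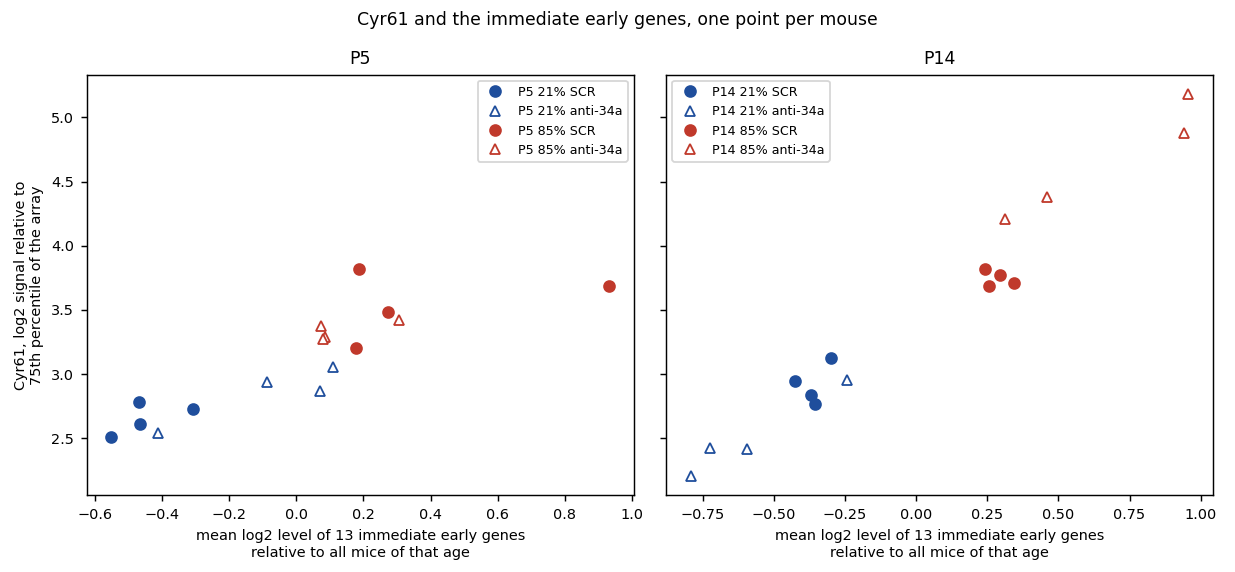
Log2 signal of Cyr61 relative to each array's 75th percentile (vertical axis) against the mean log2 level of 13 immediate early genes relative to all mice of that age (horizontal axis), at P5 and P14. Each point is a mouse, coloured by oxygen level (blue 21%, red 85%) with circles for scrambled antimiR and triangles for antimiR-34a. At P14 the antimiR-34a mice of 85% O2 spread from 0.31 to 0.96 on the horizontal and from 4.21 to 5.18 on the vertical axis.

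Immediate early genes moved with oxygen as well. The counts that follow for lists of genes are to be read against the shares of all features called, given above for each oxygen comparison. Under the scrambled antimiR, 9 of 13 were called higher in hyperoxia at P5 and 8 of 13 at P14, with none lower, and under antimiR-34a 4 were higher and 2 lower at P5 and 12 were higher at P14. Atf3, a stress-induced factor, was at 2.13 and 2.04 at P5 and P14 under the scrambled antimiR (adjusted p = 1.08e-05 and 2.85e-05 by limma). Nr4a1, a nuclear receptor, was at 1.76 and 2.08 (adjusted p = 0.000152 and 2.29e-05 by limma). Their medians were 0.63, 0.54, 0.33 and 1.39 in the order given.

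Ctgf and Cyr61 are classic targets of the Hippo pathway factors YAP and TAZ, and 20 further targets were examined. At P5 under the scrambled antimiR, 7 were higher in hyperoxia and 1 lower, with a median of 0.20. At P14, 6 were higher and 7 lower, with a median of 0.02, close to the 28.2% and 32.7% of all features. Among the higher ones at P14 were Myof at 1.61, Nt5e, which makes adenosine, at 0.84 and Tgfb2 at 0.76 (adjusted p = 5.42e-06, 0.000112 and 4.13e-06 by limma). Among the lower ones were Igfbp3 at -1.22, Foxf2 at -0.78, and Lats2 and Amotl2, which feed back on the pathway, at -0.63 and -0.56 (adjusted p = 4.12e-05, 9.11e-06, 3.58e-05 and 0.000285 by limma). Under antimiR-34a 4 were higher and 3 lower at P5 and 6 of each at P14, with medians of 0.10 and 0.17. None was called between the antimiRs in any of the 4 groups of age and oxygen.

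Of 16 other matricellular genes related to the 8, 15 were measured. Under the scrambled antimiR 2 were higher and 4 lower in hyperoxia at P5, and 5 of each at P14, close to the 28.2% and 32.7% of all features, and under antimiR-34a 2 were higher and 5 lower at P5 and 7 and 6 at P14. The medians were -0.35, 0.17, 0.03 and 0.36. Spp1, which encodes osteopontin, was higher by 2.22 at P5 and by 2.70 at P14 under the scrambled antimiR (adjusted p = 0.000431 and 1.45e-05 by limma), more than any of the 8 genes in these comparisons. The CCN relatives Wisp1 and Wisp2 rose by 0.36 and 0.60 at P14 (adjusted p = 0.0340 and 0.00745 by limma). The other CCN relatives were Wisp3, called lower at -1.17 (adjusted p = 0.0409 by limma), and Nov, not called at 0.43 (adjusted p = 0.164 by limma). Wisp3 was above background on 1 of these hyperoxic arrays and on 4 in room air. Sparcl1, the nearest relative of Sparc, was lower at both ages, at -0.35 and -0.78 (adjusted p = 0.00282 and 1.02e-05 by limma). Tgfbi, the relative of Postn, was also lower at both, at -0.37 and -0.53 (adjusted p = 0.000621 and 0.000161 by limma), and so was Tnxb at P14, at -1.21 (adjusted p = 7.98e-05 by limma). None of the 15 was called between the antimiRs.

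Of 12 receptors of these proteins, 8 were higher and none lower in hyperoxia at P5 under the scrambled antimiR, and 6 were higher and 2 lower at P14. The medians were 0.23 and 0.34, and under antimiR-34a 0.22 (7 higher, 1 lower) and 0.58 (8 higher, 2 lower). At P14 the integrin chains Itgb1, Itgav and Itgb6, which bind fibronectin, tenascin C and periostin, rose by 1.04, 0.80 and 1.03 (adjusted p = 7.45e-06, 0.000111 and 8.78e-05 by limma). The thrombospondin receptor Cd36 fell by 1.28 and the integrin chain Itga8 by 0.83 (adjusted p = 1.33e-06 and 0.000122 by limma). At P5, Cd36 was instead called higher in hyperoxia under both antimiRs. For both Cd36 and Itga8, the oxygen effect at P14 minus that at P5 was called below 0 under the scrambled antimiR. None of the 12 was called between the antimiRs.

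Over all 32 mice, Ism1 and Fxyd5 were among the genes whose pattern was most like that of Ctgf (Pearson's r = 0.953 for both). Btg2 was most like Cyr61 (0.947), followed by a transcript without a gene symbol (0.945) and Kcne4 (0.943), and Tnfaip6, a hyaluronan-binding protein of inflammation, was most like Thbs1 (0.969), before Actr3 (0.946) and Rhoc (0.943). For Tnc the nearest were B4galt1 (0.956), Atp13a3 (0.952) and Pop7 (0.951), for Fn1 Pmepa1 (0.956), Slfn5os (0.941) and Cd93 (0.940), for Postn Pgm2l1 (0.925), Prrx2 (0.924) and Kif5b (0.924), and for Thbs2 Lgr5 (0.883). These describe 24683 candidate features over mice that share oxygen, age and slide. For the brightest Sparc feature the nearest gene names were Cxcl11 and Med16 (both 0.989). Within an age, this feature varied less before scaling than after. Its SD was 0.09 before and 0.21 after scaling on the P14 arrays, and 0.13 and 0.24 on the P5 arrays. The part of the scaling in its correlations was not tested.

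Markers of other tissues moved with the groups as well. Lung identity genes, such as those of surfactant and capillaries, were each above background in every group on at least 1 array, and their mean level stayed between -0.17 and 0.21 relative to all mice of an age. Single genes of this list did change in hyperoxia under the scrambled antimiR, where 2 of 8 rose and 2 fell at P5, while 3 rose and 1 fell at P14. Aqp5, an alveolar water channel, was at 0.85 and 0.81, and the surfactant protein gene Sftpa1 at -0.42 and -0.88. Scrambled antimiR replicate 4 of P5 in room air had a skeletal muscle mean of 4.90, against -0.21 to 1.10 in the other 3 mice of its group, and 4 of 8 skeletal muscle and 6 of 8 heart muscle genes were called lower in hyperoxia at P5 under the scrambled antimiR, with 5 and 5 lower at P14. Without this mouse the P5 oxygen values were 0.71 for Ctgf, 0.91 for Cyr61, -0.51 for Postn and 0.26 for Fn1, and all 4 calls were kept. Its removal took the age call from Ctgf (0.44, limma adjusted p = 0.0552), and gave calls to Thbs2 for age (0.30, limma adjusted p = 0.0216) and for the age difference of the oxygen effect (-0.39, limma adjusted p = 0.0323).

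Macrophage markers were higher in hyperoxia, with 5 of 6 called at P5 and 4 of 6 at P14 (1 lower) under the scrambled antimiR. Lung mesenchyme markers were lower, with 9 of 10 called at P5 and 7 of 10 at P14 (1 higher), and their mean at P14 lay from 0.23 to 0.27 in room air and from -0.30 to -0.26 in hyperoxia in the mice given the scrambled antimiR. Under antimiR-34a it lay from 0.15 to 0.22 in room air and from -0.37 to 0.12 in hyperoxia. Platelet markers, of interest because platelets carry thrombospondin 1, showed 1 higher and 2 lower of 8 at P14, with means from -0.04 to 0.21 in room air and from -0.35 to 0.18 in hyperoxia, and 1 higher at P5. Neutrophil markers showed 3 of 8 higher at P14 and 2 lower at P5. Of 8 mesothelium markers 2 were higher and 3 lower at P14 and 1 higher at P5, and of the cartilage markers measured 2 were higher with 1 of 4 lower at P5 and 2 of 5 lower at P14. Under antimiR-34a 3 mesothelium markers were higher in hyperoxia at P5, and 3 were higher and 1 lower at P14. The mesothelium means of these mice at P5 were -1.49, -0.10, 0.33 and -1.31 in room air and 0.68, 0.45, -1.23 and 0.42 in hyperoxia. Between the antimiRs in hyperoxia at P14, 2 neutrophil markers were lower and no other marker was called. The part of these tissues in the results for the 8 genes was not tested.

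The other features lie at these places of the mm9 build, per the array annotation, all 60 bases long. Ctgf is read at chr10:24318281-24318340 and Cyr61 at chr3:145310187-145310246, Thbs1 at chr2:117952585-117952644 and Thbs2 at chr17:14805730-14805789. Postn is read at chr3:54194840-54194899 and Fn1 at chr1:71632116-71632175. The 3 Sparc features lie at chr11:55208939-55208998, chr11:55208002-55208061 and chr11:55207772-55207831, in the order of their place in the transcript. Whether these places are coding or untranslated was not determined, as no annotation of that build was used.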

How the data were processed

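Conditions came from the sample labels. Each file the authors deposited holds the spot intensities of 1 one-colour Agilent array, from Feature Extraction 10.7.3.1 per the file headers. The processed intensity is background-subtracted and is not normalized between arrays. The authors also deposited a table of log2 values, used here as an alternative, whose normalization is not given in the sources used here.

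Levels are log2 of the processed intensity after subtracting its 75th percentile on that array. Outlier spots (0.2109%) were dropped, repeated spots averaged, and no spot was saturated. A feature entered a fit if any group in it had the feature well above background in all 4 mice. limma 3.58.1 (R 4.3.3) gave 1 mean per group, from the 16 arrays of an age or from all 32, with Benjamini-Hochberg adjustment and a threshold of 0.05. The number of arrays limits the precision, and each had 33634 to 40802 features above background.

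The 8 genes and all gene lists (relatives, YAP and TAZ targets, immediate early genes, receptors, and markers of lung identity, skeletal muscle, heart muscle, platelets, macrophages, neutrophils, cartilage, lung mesenchyme and mesothelium) were chosen with earlier results of these data known. A gene was taken on its brightest feature, list genes were named among those called, and the 3 genes most correlated with each of the 8 were found, of which not all are reported here. The fit was tested on simulated data. Alternatives were normexp correction (offset 50), quantile normalization, no filter, a filter on every array, only the compared groups, the methods' test (unequal variances, Benjamini-Hochberg adjusted), a replicate block, the authors' values, the mean of all features of a gene, both P14 room air arrays of unusual brightness left out, and each array left out.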

Additional observations from a re-analysis of the deposited data

Results flagged for a closer look

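A single mouse stood apart in 3 of 64 sets of 4 mice, and about 1 set in 20 does so by chance. Fn1 was 8.26 in antimiR-34a replicate 2 of P14 in 85% O2, against 7.80 to 7.85. The brightest Sparc feature was 9.21 in scrambled antimiR replicate 4 of P14 in 21% O2, against 8.62 to 8.72, and 8.57 in antimiR-34a replicate 1 of the same age and oxygen level, where the others lay up to 9.05. These last 2 arrays are the dimmest and the brightest of their groups.

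The oxygen effect under the scrambled antimiR differed between the ages by the test of the difference itself. At P14 minus P5 the log2 difference was 1.74 for Tnc, 1.58 for Thbs1, 0.63 for Ctgf and 0.53 for the brightest Sparc feature, which went from -0.24 to 0.29 with neither called. The call for Sparc was lost without any of 8 single arrays (P5 room air replicate 1, P5 hyperoxia replicates 2 and 4, P14 hyperoxia replicates 3 and 4, and P14 room air replicates 1, 2 and 3), where it lay between 0.46 and 0.50. It was 0.07 for the mean of its 3 features.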

How the results depend on the processing

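Under alternatives other than leaving out an array, 845 of 896 log2 fold changes of the members kept their sign and side of the threshold, 14 gained a call, 19 lost one, 16 changed sign without being called either way, and 2 changed sign and were called in the alternative. These 2 were Sparc's oxygen effects at P14 under the mean of its features, at -0.32 with the scrambled antimiR and -0.42 with antimiR-34a. That setting also called 5 members, not 3, for oxygen at P5 under antimiR-34a. For the antimiRs in hyperoxia at P14, 0 members were called with only the compared groups and 0 with the methods' test, against 1. Without both P14 room air arrays of unusual brightness, 1 member was called for the antimiRs in room air at P14 and 2 for the interaction, against 0 and 0, where 6729 and 6825 of 40087 features were called. The authors' values called 2 members for age, against 4.

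With 1 array left out, 892 of 960 kept both and 30 changed sign, none of them called. Leaving out 1 array gave 4 to 5 members for oxygen at P5 and 7 to 8 at P14 under the scrambled antimiR, 3 to 4 and 7 under antimiR-34a, 0 to 2 for the antimiRs in hyperoxia at P14, 0 to 1 for the interaction at P14, 2 to 4 for the age difference of the oxygen effect and 3 to 4 for age. Over all features, the alternatives called 0 to 4318 for the antimiRs in hyperoxia at P5 (23 as reported) and 0 to 1170 at P14 (1025), 1 to 410 in room air at P5 (49) and 0 to 6729 at P14 (0), and 4 to 32 and 0 to 6825 for the interactions (20 and 34).

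The deviations of same-numbered mice from their group means correlated between -0.354 and 0.499 over pairs of groups, so the numbers were not taken to pair the mice. A replicate block left Cyr61 called between the antimiRs in hyperoxia at P14 (limma adjusted p = 0.0328) and took the call from Ctgf for the age difference of the oxygen effect (0.63, limma adjusted p = 0.0511).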
